A study of Mus musculus with 28 samples.

Results

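The RNA of lung epithelium labelled Yap active was set directly against that of epithelium labelled Yap deleted. The comparison used 11 of the 28 libraries of the series, or 11 of its 19 RNA libraries, namely the 6 labelled Yap active and the 5 labelled Yap deleted. They were chosen by label, and the 8 control libraries were left out of the test. In both groups the Sftpc promoter drove CreERT2, a Cre recombinase that works only when an oestrogen receptor ligand is given, so recombination should start in the alveolar type 2 (AT2) cells of the lung. The Yap active mice were Stk3flox/flox/Stk4flox/flox SftpcCreert2, and the Yap deleted mice were Yapflox/flox SftpcCreert2. The controls of each line carried the same floxed genes and no SftpcCreert2. Yap was altered at postnatal day 3 in the mice with Cre, and the cells of every group were collected at postnatal day 14. The labels give the cell type as AT2. Cells bearing CD31, CD271, CD90.2, Ter119, CD45 or CD16/32 were removed on magnetic beads, those bearing CD326 (EPCAM) were kept, and polyA RNA was sequenced. The inducing agent is not named in the labels, and they leave unsaid whether libraries come from separate animals, so p-values measure only the spread between these libraries, which may be technical. Line, genotype and count table divide the 11 libraries in the same way and cannot be told apart.

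Yap, the product of Yap1, is a transcriptional coactivator that binds TEAD factors on DNA and drives genes of growth and cell shape. The kinases MST2 and MST1, encoded by Stk3 and Stk4, act through LATS kinases to keep Yap out of the nucleus, so loss of Stk3 and Stk4 is meant to activate it. After birth AT2 cells make surfactant, divide, and give rise to the flat alveolar type 1 (AT1) cells that exchange gas.

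The 11 libraries held 35.0 to 43.5 M counts, with 17089 to 18087 genes counted at least once. Values below are CPM, read counts relative to library size, scaled over all 19 RNA libraries. In a principal component plot of the 11 libraries the library labelled active 1 lay apart on the second component (18.6% of the variance), at -61.6 against -11.9 to 27 in the others. Epcam and Sftpb, markers of the epithelium and of AT2 cells, were abundant in all 11, at 148 to 259 CPM and 146 to 208 CPM for Epcam in the active and deleted libraries. Marker genes of other cells were also present. The summed level of 18 mesenchymal genes was 3990 to 26181 CPM in the active and 5486 to 21429 CPM in the deleted libraries. That of 17 endothelial genes was 227 to 401 and 251 to 347 CPM, and that of 16 macrophage genes 74 to 285 and 135 to 470 CPM. In bulk RNA, fewer cells of a type and less RNA per cell cannot be told apart.

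Libraries were then checked against their labels. A floxed deletion is only partly visible here, because reads from exons that remain are counted too. Yap1 (chr9:7931999-8004638, GRCm38.p6) lay at 156, 178 and 218 CPM (lowest, median, highest) in the active libraries and at 77.1, 138, 101, 82.6 and 93.8 CPM in deleted libraries 1 to 5. All active libraries lay above all deleted libraries, and the log2 fold change was 0.91 ± 0.15 (SE, n = 6 and 5; adjusted p = 0.0112, edgeR quasi-likelihood test, two-sided, with Benjamini-Hochberg adjustment over 15507 genes). Among the controls, deleted control 2 held 112 CPM, inside the deleted range, and the other 7 controls held 169 to 217 CPM.

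Stk3 (chr15:34875499-35155882) was not lower in the active libraries. It lay at 31.7, 33.9 and 51.1 CPM in them and at 26.6, 24.8, 26.4, 20 and 21.4 CPM in the deleted libraries, a log2 fold change of 0.63 ± 0.14 (n = 6 and 5; edgeR adjusted p = 0.0324). The highest active value was that of the library labelled active 1, and without it the log2 fold change was 0.49 (edgeR adjusted p = 0.0109). Active controls 1 to 3 held 55.9, 51.7 and 56.6 CPM, all above the active libraries, while the library labelled active control 4 held 34 CPM, inside the range of active libraries 2 to 6. Leaving out active library 2, 3 or 5, or deleted library 2, 3, 4 or 5, raised the adjusted p for Stk3 above 0.05, to 0.0796 at most. Stk4 (chr2:164074113-164155524) lay at 79.1, 90.6 and 128 CPM in the active and at 74.8 to 103 CPM in the deleted libraries, and did not pass the test (log2 fold change 0.12 ± 0.13, edgeR adjusted p = 0.621). Active controls 1 to 4 held 108, 109, 116 and 120 CPM of Stk4, and the deleted controls 88.7 to 134 CPM. Active libraries 2 to 6, at 79.1 to 93.5 CPM, lay below all active controls, and active library 1 (128 CPM) lay above them.

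Esr1 (chr10:4611989-5005633) is the mouse gene for oestrogen receptor alpha. CreERT2 is Cre fused to the ligand-binding part of the human form of this receptor. Active libraries 2 to 6 held 213 to 333 CPM of it and the deleted libraries 237 to 523 CPM. The library labelled active 1 held 2.03 CPM, near the 0.929 to 3.93 CPM of 6 of the 8 controls. The libraries labelled active control 2 and deleted control 2 held 165 and 82.4 CPM. These 3 libraries go against their labels by this gene, as active control 4 does by Stk3. By Esr1 (0.963 CPM) and Stk4 (120 CPM, the highest of the active controls) active control 4 goes with its label. It is still counted below among the 3 doubted controls, with active control 2 and deleted control 2. The counts of all called genes between Yap active and Yap deleted are given with and without active library 1. The shares of called genes that go with the controls are given with and without the 3 doubted controls. Other control values, of single genes and of gene lists, include all 8 controls unless a smaller set is named. The groups are named below as the labels name them.

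**Figure D1:**
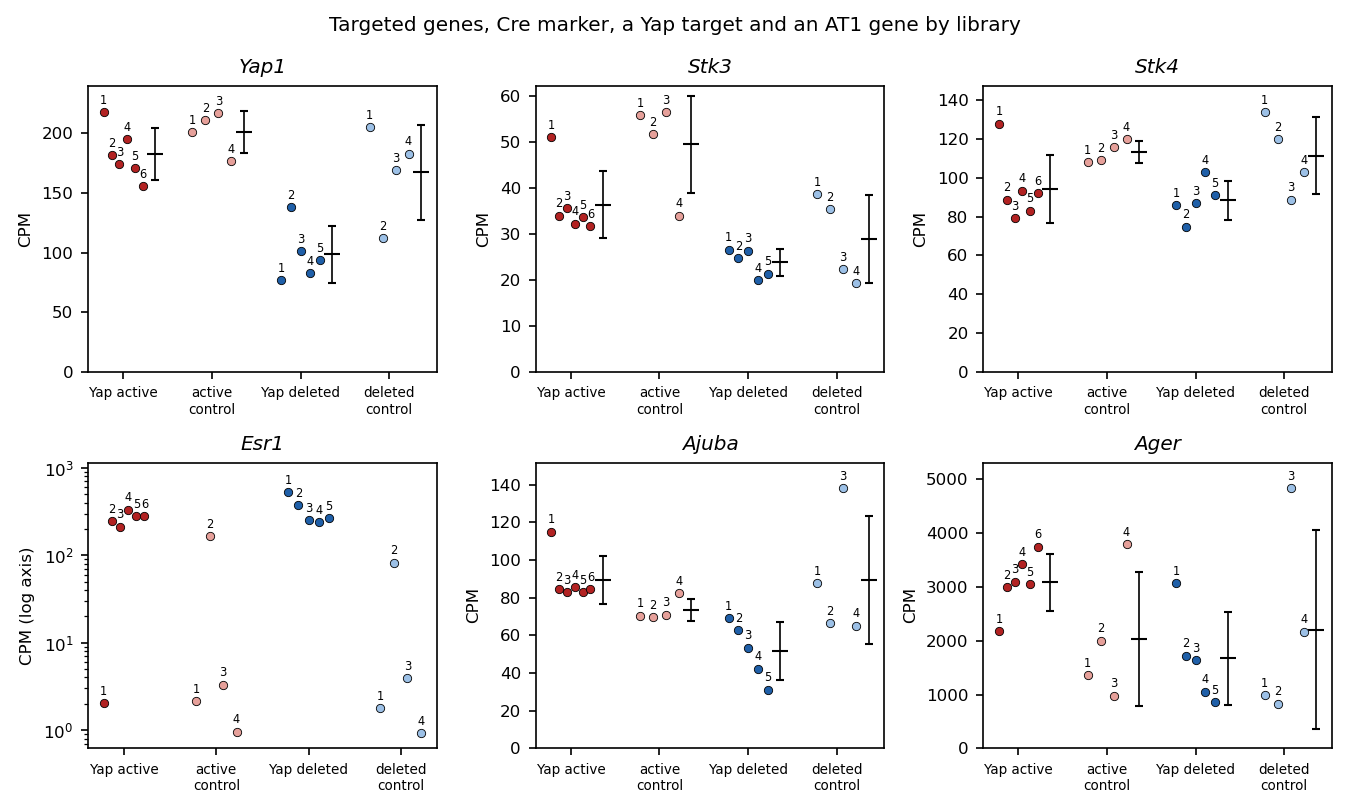
CPM of Yap1, Stk3, Stk4, Esr1 (log axis), Ajuba and Ager in each library by labelled group, with the library number beside each point and bars at the mean ± SD (none on the log panel). Yap1 lies at 156 to 218 CPM in the active and 77.1 to 138 CPM in the deleted libraries, and Esr1 is low in active library 1 and high in active control 2 and deleted control 2.

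Of 15507 genes tested, 805 (5.19%) differed between Yap active and Yap deleted epithelium, 515 (3.32%) higher and 290 (1.87%) lower in Yap active, by edgeR's quasi-likelihood test at an adjusted p under 0.05. Thus 64.0% of the called genes were higher in Yap active. That share was 55.7% with RLE scaling and 48.0% with DESeq2. Of 30 listed cell division genes 26 were among the higher ones, as were the AT2 and defence genes Lamp3, Lcn2, Ctsh and Il33. Without the library labelled active 1 the same test called 2781 of 15324 genes (18.1%), 1401 (9.14%) higher and 1380 (9.01%) lower. The calls shared were 803 genes, which is 99.8% of the 805 and 28.9% of the 2781, all with the same sign. Leaving out any other active library, or deleted library 2, 3, 4 or 5, lowered the count of 805 to between 264 (without deleted 3) and 460 (without active 2).

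The libraries of the groups did not overlap for 577 genes with Yap active above (3.72% of those tested) and 431 with Yap active below (2.78%). Among the called genes this held for 392 of the 515 and 232 of the 290. Of 76 called genes named by rule, 38 were called in all 11 fits that left out 1 library, and none changed sign in any of them.

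Cell division genes were higher in Yap active epithelium. Of a list of 30 genes of DNA replication and mitosis, all 30 had a log2 fold change above 0 and 26 were called higher, with a median of 1.86 against 0.02 over all 15507 genes. Without active library 1, 29 were called and the median was 1.91. The 4 not called in the 11 libraries were Ccnb1, Plk1, Cdc20 and Pcna, whose log2 fold changes of 1.12 to 2.09 had adjusted p of 0.0687 to 0.101 by edgeR.

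Mki67 (chr7:135689784-135716450) encodes Ki-67, a protein of dividing cells. It lay at 101, 132 and 266 CPM in the active libraries and at 46.4, 29.6, 25.5, 20.1 and 5.45 CPM in deleted libraries 1 to 5. The groups did not overlap, and active library 6 stood highest. Its log2 fold change was 2.55 ± 0.45 (n = 6 and 5; edgeR adjusted p = 0.0145), and 2.57 without active library 1.

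Mcm6 (chr1:128331575-128359705), a subunit of the helicase that opens DNA at replication origins, lay at 38.3, 60.8 and 86.1 CPM in the active libraries. The deleted libraries held 30.7, 29.1, 24.2, 25.8 and 22.7 CPM, all below the lowest active library, which was active 1. The log2 fold change was 1.24 ± 0.18 (n = 6 and 5; edgeR adjusted p = 0.00847). Its partner Mcm2 rose by 1.52 ± 0.26, from 19.6 to 30.6 CPM in the deleted to 30.7 to 101 CPM in the active libraries, the groups meeting at active library 1. Origin licensing factor Cdc6 rose by 2.36 ± 0.44 (edgeR adjusted p = 0.0167).

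The transcription factors of this programme were higher too. E2f1, which turns on replication genes at the entry to S phase, lay at 20.6, 26.6 and 39.7 CPM in the active libraries and at 14.2, 8.73, 8.98, 7.28 and 3.73 CPM in the deleted ones. These did not overlap, and the log2 fold change was 1.74 ± 0.3 (n = 6 and 5; edgeR adjusted p = 0.0124). Foxm1, which drives genes of mitosis, had a log2 fold change of 1.72 ± 0.3 (edgeR adjusted p = 0.0143). For Ccna2, the S and G2 phase cyclin, it was 2.29 ± 0.4 (edgeR adjusted p = 0.0132), and for Bub1b, a kinase of the spindle checkpoint, 1.52 (edgeR adjusted p = 0.0147).

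The promoters of Cdk1, the mitotic kinase, and of Mcm6 are shown because motifs of known cell cycle regulators occur in them. They are the 250 bases before the start site in RefSeq GRCm38.p6, on the minus strand for both. Capitals mark CCAAT (bound by NF-Y), TTTGAA (the core of the CHR element) and TTTNNCGC (E2F), found on either strand, and neighbouring or overlapping matches run together. The Cdk1 stretch is chr10:69352913-69353162 and the Mcm6 stretch chr1:128359706-128359955.
Cdk1: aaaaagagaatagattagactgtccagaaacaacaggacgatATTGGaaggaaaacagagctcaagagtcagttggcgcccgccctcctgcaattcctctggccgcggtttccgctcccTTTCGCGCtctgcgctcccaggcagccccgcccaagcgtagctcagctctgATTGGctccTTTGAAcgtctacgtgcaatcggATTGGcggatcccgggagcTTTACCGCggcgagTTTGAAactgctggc
Mcm6: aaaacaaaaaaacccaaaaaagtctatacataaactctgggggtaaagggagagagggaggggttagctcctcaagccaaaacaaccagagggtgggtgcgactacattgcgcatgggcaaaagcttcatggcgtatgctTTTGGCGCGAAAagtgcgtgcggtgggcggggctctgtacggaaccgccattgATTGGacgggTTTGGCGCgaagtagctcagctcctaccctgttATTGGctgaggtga

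The Cdk1 stretch holds 3 matches to CCAAT, 2 to TTTGAA and 2 to TTTNNCGC, and the Mcm6 stretch 2, 0 and 3, of which 2 overlap. Over promoters of 300 bases, which include 50 bases after the start, CCAAT occurred in 21 of the 25 cell cycle genes matched to RefSeq, TTTGAA in 13 and TTTNNCGC in 6. Of all 32851 mouse promoters of that length, 37.4%, 17.9% and 5.17% hold these letters. The TEAD motif GGAATG occurred in 1 of the 25, that of Mcm3, against 14.7% of all promoters. A match describes the letters only.

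**Figure D2:**
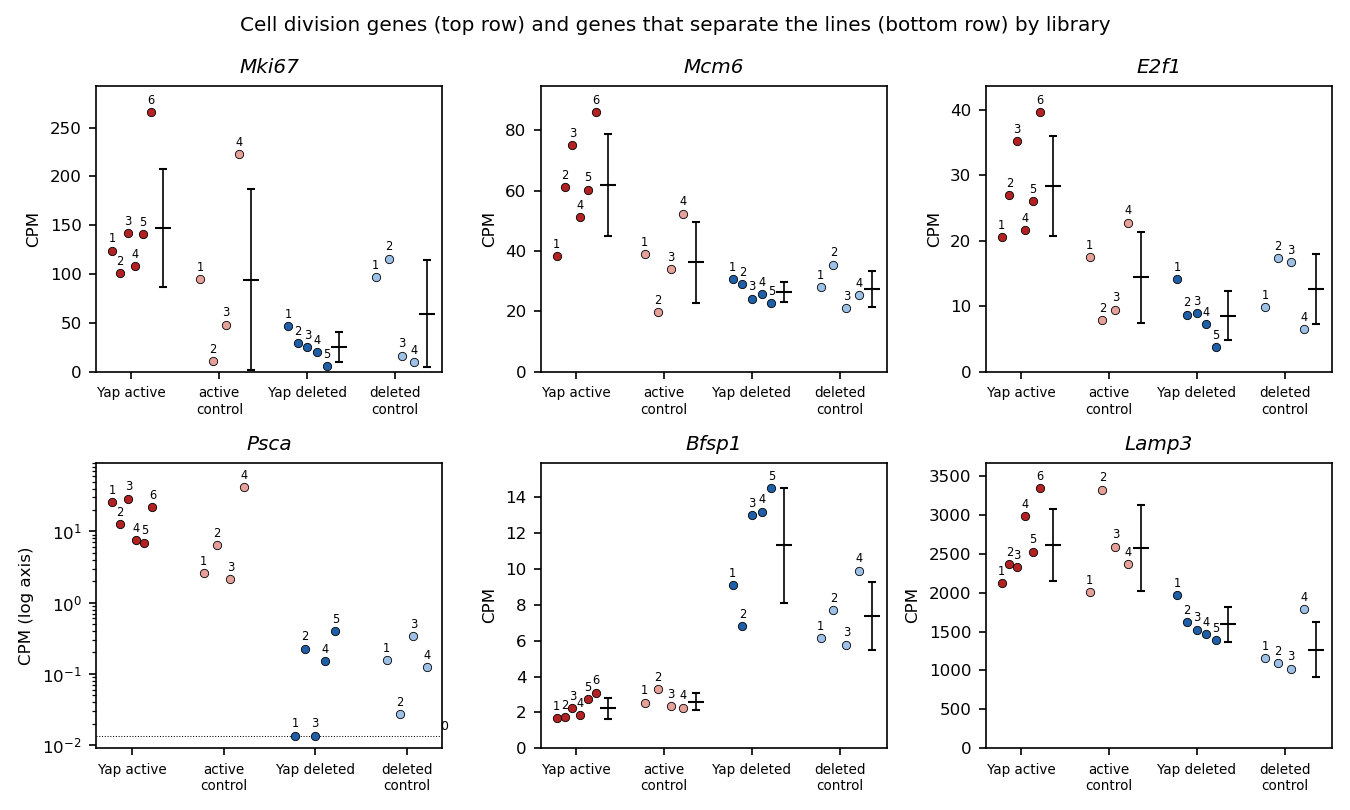
CPM of Mki67, Mcm6, E2f1, Psca (log axis, values of 0 on the dotted line), Bfsp1 and Lamp3 in each library by labelled group, with library numbers and mean ± SD (none on the log panel). The active and deleted libraries do not overlap for any of the 6 genes, and active control 4 lies within the active range for Mki67, while active controls 1 to 3 lie at 11.2 to 94.9 CPM.

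The controls held the same genes at levels that varied widely within each line. Summed over the 30 genes, cell cycle transcripts reached 560 to 1788 CPM in the active and 161 to 448 CPM in the deleted libraries, which did not overlap. Active controls 1 to 4 held 552, 154, 303 and 1237 CPM, and deleted controls 1 to 4 held 427, 559, 230 and 179 CPM. Mki67 lay at 94.9, 11.2, 48.1 and 223 CPM in the active controls and at 96.6, 116, 16.4 and 9.69 CPM in the deleted controls. The log2 fold change of Mki67 between the lines' controls was 0.65 ± 1.01 (n = 4 and 4), and its difference beyond the controls was 1.91 ± 1.05 and was not called.

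Of 30 listed genes of the Hippo pathway and partners of Yap, 23 lay above 0 and 5 were called, all higher in Yap active, against 5.19% of all genes, with a median log2 fold change of 0.18. The fit that left out active library 1 called 7, all higher, against 18.1% of all genes, with a median of 0.06. The 5 were Yap1, Stk3, Mob1b, Tead4 and Wwc2. Mob1b, a cofactor of the LATS kinases, lay at 51 to 72.6 CPM in the active and 36.1 to 47.8 CPM in the deleted libraries (log2 fold change 0.61 ± 0.12, edgeR adjusted p = 0.0184). Tead4, a DNA-binding partner of Yap, lay at 13.6, 16.4 and 20.7 CPM in the active libraries and at 14.5, 9.05, 10.5, 10.1 and 7.17 CPM in the deleted ones, with deleted library 1 inside the active range (log2 fold change 0.71 ± 0.18, edgeR adjusted p = 0.0467). Wwtr1, which encodes Taz, the paralogue of Yap, had a log2 fold change of 0.42 ± 0.12 that missed the threshold in the 11 libraries (edgeR adjusted p = 0.0667) and passed it without active library 1 (0.32, edgeR adjusted p = 0.0388). Mob1b lost its call without deleted library 2, 3 or 5 (adjusted p up to 0.0581). Tead4 and Wwc2 lost theirs in 9 and 8 of the 11 fits that left out 1 library, each of deleted libraries 2 to 5 among those left out, with adjusted p up to 0.116 and 0.135.

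Of 25 listed targets of Yap and TEAD, 18 lay above 0 and 1, Ajuba, was called, against 5.19% of all genes, with a median log2 fold change of 0.18. The median was -0.06 without active library 1, and 2 were then called, against 18.1% of all genes. Ajuba (chr14:54567469-54577661), a LIM protein that holds back LATS kinases, lay at 82.9, 84.6 and 115 CPM in the active libraries and at 69, 62.9, 53.5, 42.3 and 31.1 CPM in deleted libraries 1 to 5. The groups did not overlap, and active libraries 2 to 6 lay within 82.9 to 85.6 CPM. This log2 fold change was 0.81 ± 0.19 (n = 6 and 5; edgeR adjusted p = 0.0343), and it kept its call only without active library 1 or without deleted library 1, with adjusted p up to 0.0816 without another library.

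Ctgf and Cyr61, matricellular proteins used as readouts of Yap, did not pass the test. Ctgf lay at 164, 185 and 470 CPM in the active and at 84.8 to 367 CPM in the deleted libraries (log2 fold change 0.38 ± 0.4). Cyr61 lay at 75.3, 104 and 340 CPM and at 40.1 to 297 CPM (0.02 ± 0.52). The highest value of each gene was that of active library 1, without which the log2 fold changes were 0.03 and -0.5.

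Ankrd1, an ankyrin repeat protein and another Yap readout, lay at 2.29, 4.46 and 10.6 CPM in the active libraries and at 3.2, 1.16, 1.78, 0.926 and 0.141 CPM in the deleted ones. Only deleted library 1 overlapped the active range. The log2 fold change of 1.85 ± 0.63 did not pass (edgeR adjusted p = 0.104). Igfbp3, which encodes an IGF-binding protein, was called lower in Yap active only without active library 1 (log2 fold change -2.41, edgeR adjusted p = 0.0407).

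The promoters of Ajuba and Ankrd1 are shown because each holds 2 matches to the TEAD motif GGAATG, marked by capitals on either strand. They are again the 250 bases before the start in RefSeq GRCm38.p6, on the minus strand, at chr14:54577662-54577911 and chr19:36119845-36120094.
Ajuba: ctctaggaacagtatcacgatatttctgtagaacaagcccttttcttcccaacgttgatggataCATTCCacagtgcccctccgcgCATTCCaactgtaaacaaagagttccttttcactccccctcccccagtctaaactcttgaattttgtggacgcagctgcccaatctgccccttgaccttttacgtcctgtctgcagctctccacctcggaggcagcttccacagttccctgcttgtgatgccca
Ankrd1: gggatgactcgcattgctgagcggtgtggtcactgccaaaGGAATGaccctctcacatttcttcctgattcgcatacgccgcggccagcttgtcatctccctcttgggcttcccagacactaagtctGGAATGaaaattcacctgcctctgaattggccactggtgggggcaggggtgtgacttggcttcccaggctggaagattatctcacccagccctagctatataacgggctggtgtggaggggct

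Markers of AT2 cells were slightly higher in Yap active. Of 30, 24 lay above 0 with a median log2 fold change of 0.29. Lamp3, Lcn2 and Ctsh were called higher, where 3.32% of all genes were. Without active library 1, 9 were called higher and 1 lower, against 9.14% and 9.01% of all genes. Between all 8 controls of the lines 29 of the 30 lay above 0, with a median of 0.61. Without the 3 doubted controls, the log2 fold change between the controls went from 0.56 to -0.62 for Sftpc and from 0.5 to -0.28 for Abca3. It stayed above 0 for Lamp3, Lcn2 and Ctsh, at 0.77, 0.32 and 0.55.

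Lamp3 (chr16:19653381-19706365), a membrane protein of the lamellar bodies that store surfactant, lay at 2124, 2445 and 3337 CPM in the active libraries. The deleted libraries held 1963, 1622, 1522, 1465 and 1389 CPM, all lower. It rose by 0.73 ± 0.15 on the log2 scale (n = 6 and 5; edgeR adjusted p = 0.0209), and it was not called without deleted library 2, 3, 4 or 5 (adjusted p up to 0.0713). The controls did not overlap either, at 2004 to 3323 CPM in the active and 1025 to 1791 CPM in the deleted line (log2 fold change 1.0 ± 0.27).

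Lcn2 (chr2:32384637-32387739) encodes lipocalin 2, which binds bacterial siderophores. It lay at 976, 1428 and 1836 CPM in the active libraries and at 604, 694, 515, 600 and 407 CPM in the deleted ones, with no overlap (log2 fold change 1.34 ± 0.2, n = 6 and 5, edgeR adjusted p = 0.00847). Ctsh, a protease that matures surfactant protein, rose by 1.06 ± 0.17 (edgeR adjusted p = 0.0104). Sftpc, the surfactant protein C gene whose promoter drives the Cre, did not pass (log2 fold change 1.21 ± 0.67, edgeR adjusted p = 0.284). It lay at 11590, 38862 and 58932 CPM in the active libraries and at 2810, 2014, 27830, 23774 and 25488 CPM in the deleted ones, with active 1, deleted 1 and deleted 2 the lowest.

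Of 30 markers of AT1 cells, 26 lay above 0 and none was called in the 11 libraries by edgeR, with a median log2 fold change of 0.5 (0.33 without active library 1, and -0.16 between the controls). Ager, the receptor for advanced glycation end products on AT1 cells, lay at 2182, 3075 and 3746 CPM in the active libraries and at 3075, 1722, 1642, 1052 and 861 CPM in the deleted ones. Deleted library 1 lay inside the active range and the other deleted libraries below it. Its log2 fold change was 0.9 ± 0.29 (edgeR adjusted p = 0.0929), and without active library 1 it was 0.96 and called (edgeR adjusted p = 0.0463). In that fit Limch1 (-1.29) and Sec14l3 (-0.45) were called lower (edgeR adjusted p = 0.0439 and 0.0489), so 3 of 30 were called against 18.1% of all genes. Aqp5, Pdpn and Hopx had log2 fold changes of 0.67, 0.93 and 0.42 and were not called in either fit.

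Markers of the transitional state between AT2 and AT1 cells had a median log2 fold change of 0.3 over 24 genes. Without active library 1, 4 were called higher and 2 lower, against 9.14% and 9.01% of all genes. In the 11 libraries Areg, an EGF receptor ligand, and S100a14 were called higher, where 3.32% of all genes were. Areg lay at 14.9 to 32.2 CPM in the active and 3.36 to 11.3 CPM in the deleted libraries (log2 fold change 1.4 ± 0.31, edgeR adjusted p = 0.0295). Each was lost in 6 of the 11 fits that left out 1 library, with adjusted p up to 0.0702 and 0.084, deleted libraries 2, 3 and 4 among those left out.

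Of 30 lung epithelial transcription factors, Foxp2 alone was called in the 11 libraries, and the median log2 fold change was 0.03. Without active library 1, 2 were called higher, against 9.14% of all genes. Foxp2 (chr6:14901349-15441977), a forkhead repressor of the lung epithelium, lay at 35.7, 37.5 and 46.9 CPM in the active libraries. The deleted libraries held 25, 19.5, 22.3, 24.7 and 20.4 CPM, with no overlap. Foxp2 rose by 0.86 ± 0.11 on the log2 scale (n = 6 and 5; edgeR adjusted p = 0.0048), and all 10 libraries of the Yap active line lay above all 9 of the Yap deleted line. Nkx2-1, the factor that specifies lung epithelium, and Klf5, Nfib and Nfia had log2 fold changes of 0.24, 0.17, -0.32 and 0.02 and were not called.

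Innate defence genes showed 4 calls of 17, all higher in Yap active (against 3.32% of all genes), namely Lcn2, Cxcl16, Lbp and Il33, with a median log2 fold change of 0.6 (0.11 without active library 1). Lbp lost its call without active library 3 or deleted library 2, 3 or 5 (edgeR adjusted p up to 0.0814). When active library 1 was left out, 6 were called higher (against 9.14% of all genes) and Tnfaip2 lower (log2 fold change -2.40, edgeR adjusted p = 0.0229). Il33, an alarmin cytokine of the epithelium, lay at 510, 568 and 763 CPM in the active libraries and at 312, 299, 222, 171 and 120 CPM in the deleted ones. The groups did not overlap (log2 fold change 1.42 ± 0.23, n = 6 and 5, edgeR adjusted p = 0.0104). The active controls held 311 to 535 CPM and the deleted controls 159 to 210 CPM, a log2 fold change of 1.23 ± 0.2. Cxcl16, a chemokine, rose by 1.1 ± 0.18 (edgeR adjusted p = 0.0104), while its control difference was 0.25 ± 0.31.

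Interferon-stimulated genes had a median log2 fold change of 0.77 over 24 genes, 22 above 0 and none called by edgeR, with 1.87 for Ifit1 (adjusted p = 0.194). Without active library 1 the median was -0.14, so this difference rested on that library. The 7 MHC class II genes, which AT2 cells also express, all lay above 0, with a median of 1.05 and no call. Without active library 1 the median was 1.22 and 5 were called higher (against 9.14% of all genes), Cd74, the invariant chain, among them (edgeR adjusted p = 0.0405).

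In the 11 libraries, where 5.19% of all genes were called, Dll4 was the only call of 22 Notch pathway genes (median log2 fold change -0.12). Fzd5 was the only call of 20 Wnt genes (median -0.15). Without active library 1, 1 Notch gene was called higher and 5 lower, and 4 Wnt genes higher and 4 lower. The shares of all genes in that fit were 9.14% and 9.01%. Of 25 genes of the basement membrane and focal adhesions (median 0.26), Itga6 and Col4a2 were called higher and Itgb4 lower in the 11 libraries. Leaving out active library 1 gave 3 higher and 1 lower. Dll4 (chr2:119325784-119335666), a Notch ligand, lay at 4.23, 8.78 and 11.6 CPM in the active libraries and at 2.12, 2.55, 3.4, 2.88 and 2.91 CPM in the deleted ones. All active libraries were higher (log2 fold change 1.65 ± 0.27, n = 6 and 5, edgeR adjusted p = 0.0104). In the controls the order was the other way for deleted controls 1 and 2, which held 41.5 and 39.5 CPM, against 2.88 and 4.37 CPM in deleted controls 3 and 4 and 4.7 to 10.1 CPM in the active controls. Deleted controls 1 and 2 also held 3157 and 2724 CPM of the summed endothelial genes, against 277 to 690 CPM in the other controls. The part of those cells in the control value was not tested.

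Itga6, the laminin receptor subunit alpha 6, was higher in Yap active, at 78.6, 89.3 and 124 CPM against 63.1, 51.9, 54, 62.4 and 39.3 CPM. Its partner in hemidesmosomes, Itgb4, was lower, at 25.7, 35.9 and 42.2 CPM against 52.7, 55.4, 64.7, 92.2 and 57.2 CPM. Neither gene's groups overlapped. The log2 fold changes were 0.82 ± 0.15 (edgeR adjusted p = 0.0153) and -0.88 ± 0.17 (edgeR adjusted p = 0.0187). Fzd5, a Wnt receptor, and Col4a2, a basement membrane collagen, rose by 0.65 ± 0.14 and 0.54 ± 0.14 (edgeR adjusted p = 0.0243 and 0.046), and lost their calls in 4 and 9 of the 11 fits without 1 library, all of deleted 2 to 5 among those left out for both.

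Of 29 genes of sterol and fatty acid synthesis, 22 lay below 0 and 1 was called lower, Lss, which makes lanosterol. Lss lay at 31.1, 34.6 and 38.9 CPM in the active and at 43.2, 48.7, 49.2, 45.7 and 51.6 CPM in the deleted libraries. The groups did not overlap (log2 fold change -0.44 ± 0.09, edgeR adjusted p = 0.0194; 0.0568 at most, without deleted library 3 or 5). The list's median was -0.17, while between all 8 controls it was 0.41 with all 29 above 0. Without the 3 doubted controls the log2 fold change of Lss between the controls was -0.34, against 0.42 with all 8. With active library 1 left out of the direct comparison, 1 gene of the list was called higher and 5 lower, against 9.14% and 9.01% of all genes.

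Ciliated cell markers lay below 0 for 16 of 17 genes, with a median of -0.59 and no call. Without active library 1, 5 were called lower (against 9.01% of all genes), among them Cdhr3, a cadherin of ciliated cells, with -1.05 (edgeR adjusted p = 0.0191). Macrophage and endothelial markers had medians of -1.14 and -0.85 with no call. Without active library 1, 8 of 14 macrophage and 9 of 16 endothelial markers were called lower, against 9.01% of all genes. In that fit 1 endothelial marker was called higher. Ptprc, the pan-leukocyte gene, reached 14.4 CPM in active library 1, against 0.434 to 2.19 CPM in the other active libraries and 1.15 to 12.5 CPM in the deleted ones. The part of these cells in the 2781 calls was not tested.

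In the following lists 0 to 2 genes were called in the 11 libraries, where 5.19% of all tested genes were. Among p53 targets (20 genes, median -0.17) Ckap2 was higher and Trp53inp1 lower, and among club and goblet cell markers (20 genes, median -0.11) Nupr1 was lower. Ckap2 and Trp53inp1 kept their calls in 2 of the 11 fits that left out 1 library (edgeR adjusted p up to 0.0915 and 0.0981), and Nupr1 lost its call without active library 3 or deleted library 3, 4 or 5 (up to 0.0603). Hspd1, a mitochondrial chaperone, was the only call of 15 dissociation and heat shock genes (median 0.29), at 62.4 to 89.1 CPM in the active and 42.5 to 50.7 CPM in the deleted libraries (log2 fold change 0.65 ± 0.1, edgeR adjusted p = 0.0104). Cycs, cytochrome c, was the only call of 21 genes of oxidative phosphorylation, 19 of which lay above 0 (median 0.18), and it kept its call in 2 of the 11 fits (edgeR adjusted p up to 0.132). No gene was called by edgeR in the 11 libraries among those of AP-1 and immediate early response (median 0.25, and -0.11 without active library 1). Nor was any among those of FGF, BMP and TGF-beta signalling, tight junctions, imprinted growth genes, or the markers of basal, mesothelial and mesenchymal cells, lymphocytes and neutrophils. Without active library 1, calls higher were 4 for oxidative phosphorylation, 4 for heat shock, 3 for tight junctions and 1 for BMP and TGF-beta (against 9.14% of all genes). Calls lower were 4 for imprinted genes, 3 for neutrophils, 2 for AP-1, and 1 each for FGF, mesenchymal cells and lymphocytes (against 9.01%).

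**Figure D3:**
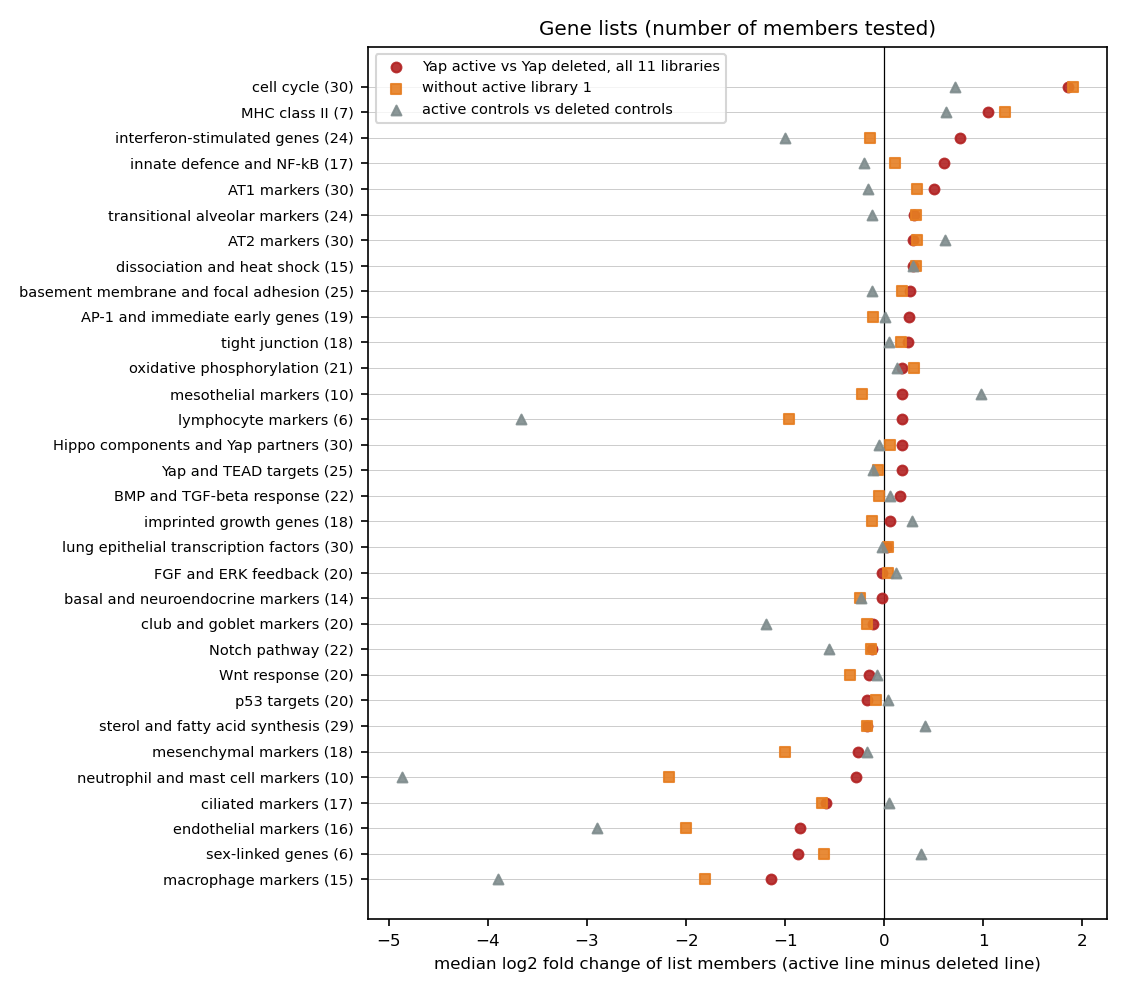
Median log2 fold change, active line minus deleted line, of 32 gene lists with at least 5 genes tested (number in brackets). Circles give all 11 libraries, squares leave out active library 1, and triangles compare all 8 controls. The cell cycle list lies highest, with medians of 1.86, 1.91 and 0.71, while the interferon list moves from 0.77 to -0.14 without active library 1.

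Among the genes with the largest differences, several were almost silent in one line. Psca (chr15:74714839-74717065), a GPI-anchored surface protein, lay at 6.99, 17.2 and 28.9 CPM in the active libraries and at 0, 0.227, 0, 0.15 and 0.395 CPM in the deleted ones. There was no overlap, and the fitted log2 fold change was 6.83 ± 0.8 (n = 6 and 5; edgeR adjusted p = 0.00436), a value that depends on how zeros are treated. Active controls 1 to 4 held 2.57, 6.45, 2.12 and 42.2 CPM and the deleted controls 0.0271 to 0.342 CPM. The lines' controls were thus separated too, with a log2 fold change of 6.38 ± 1.29. Without the 3 doubted controls, among them active control 4, it was 3.46 ± 0.59. Fbp2, the muscle form of fructose bisphosphatase, likewise lay at 14.3 to 138 CPM and 1.05 to 7.96 CPM, and at 9.82 to 77.2 CPM and 0.547 to 2.23 CPM in the controls.

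The same held for genes lower in Yap active. Bfsp1 (chr2:143826528-143915219), a filament protein best known from the lens, lay at 1.7, 2.05 and 3.11 CPM in the active and at 9.11, 6.8, 13, 13.2 and 14.5 CPM in the deleted libraries (log2 fold change -2.33 ± 0.24, edgeR adjusted p = 0.00379). Its controls did not overlap either, at 2.26 to 3.29 and 5.79 to 9.91 CPM. Cdh22 (chr2:165111501-165234924), a cadherin, lay at 0.0595, 0.197 and 0.739 CPM in the active and at 2.5, 15.3, 30.3, 0.801 and 5.34 CPM in the deleted libraries. Its controls held 0.11 to 0.459 and 1.24 to 6.48 CPM.

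Other genes had a smaller or an opposite difference between the controls. Ly6d, a surface protein of the Ly6 family, lay at 3.21, 4.19 and 8.99 CPM in the active and at 0.786 to 1.64 CPM in the deleted libraries (log2 fold change 2.09 ± 0.33, edgeR adjusted p = 0.0101), and its control difference was -1.01 ± 1.16. The deleted controls held 4.5, 18.9, 1.28 and 1.39 CPM of Ly6d, the highest in deleted control 2, which goes against its label. Kng2 (chr16:22985852-23029101), a kininogen, was lower, at 0.231, 1.2 and 2.76 CPM against 20.2, 7.91, 11.8, 9.36 and 2.71 CPM. Active library 6 and deleted library 5 overlapped, and the log2 fold change was -2.99 ± 0.56 (edgeR adjusted p = 0.0176). All 8 controls held 0.234 to 2.78 CPM of Kng2, and only deleted libraries 1 to 4 lay above that range. Col6a5, a collagen VI chain, and Dgat2, which completes triglyceride synthesis, fell by 1.86 and 1.33 on the log2 scale (edgeR adjusted p = 0.0104 and 0.0222). Their control differences had the same sign, at -0.49 ± 0.52 and -0.34 ± 0.31. Dgat2 lost its call without active library 6 or deleted library 4, at an adjusted p of 0.0567 at most.

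The controls of both lines were then set beside the calls. Between 4 active and 4 deleted controls, edgeR's test called 3 of 15832 genes (0.0189%), all higher in the active line, and 1897 had an unadjusted p under 0.05. On the same controls DESeq2 called 799 and limma-voom 5. Of the genes called between Yap active and Yap deleted, 461 of the 510 higher ones with a control value (90.4%) and 250 of the 287 lower ones (87.1%) had the same sign in the controls. Among all tested genes with a fold change above or below 0 these shares were 68.7% and 67.1%. The median log2 fold changes were 0.946 directly and 0.446 in the controls for the higher genes, and -0.938 and -0.387 for the lower ones. The control difference in the direction of the call was under 0.5, or was opposite, for 277 (54.3%) and 170 (59.2%) of them, against 86.9% and 77.0% of all tested genes above and below 0. Without active controls 2 and 4 and deleted control 2, the controls shared the sign of 445 of 511 higher genes (87.1%) and 254 of 290 lower ones (87.6%), against 57.4% and 63% of all tested genes above and below 0, and edgeR called 0 genes between the controls, with 1212 at an unadjusted p under 0.05. Leaving out these libraries was chosen after seeing the data.

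Control libraries of the lines did not overlap, in the same direction, for 88 of the 515 higher genes (17.1%, against 4.15% of all tested) and 38 of the 290 lower ones (13.1%, against 2.75%). All 10 libraries of the Yap active line lay above all 9 of the Yap deleted line for 45 of the 515, and below for 21 of the 290, against 0.368% and 0.193% of all tested genes. Such separation requires that Yap active and Yap deleted libraries do not overlap, which the calls favour, so these shares are not a like background. Of all genes without that overlap, 57 of 577 and 30 of 431 separated the lines. Of the called ones without it, 45 of 392 and 21 of 232 did. Without active library 1 and the 3 doubted controls the line-wide counts were 96 (18.6%, against 0.98%) and 35 (12.1%, against 0.374%), with the same limit. The remaining controls did not overlap for 197 of the 515 (38.3%, against 18.6%) and 74 of the 290 (25.5%, against 11.7%). Foxp2, Lamp3, Psca, Bfsp1, Cdh22 and Mob1b were among the 66 called genes that separate all libraries of the lines. So was Dclk1, a kinase of the doublecortin family, at 32.1 to 51.4 against 7.28 to 19.1 CPM.

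When the control difference was taken from the direct one in a model of all 19 libraries, no gene of 16308 (0.0%) was called by edgeR, and 1055 had an unadjusted p under 0.05. DESeq2 called 17 and limma-voom 21. Yap1 had a difference beyond the controls of 0.65, Ajuba 1.1 ± 0.31, Dll4 3.2 ± 0.83 and Ly6d 3.13 ± 1.13. For Lamp3, Psca and Il33 it was -0.28 ± 0.28, 0.48 ± 1.4 and 0.18 ± 0.33. Leaving out active control 4 alone, or active library 1, active control 2 and deleted control 2 together, also gave 0 calls by edgeR, with 2020 and 914 genes at an unadjusted p under 0.05.

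In a model that left out active library 1, active controls 2 and 4 and deleted control 2, chosen after seeing the data, edgeR called 52 of 16577 genes (0.314%) beyond the controls, 32 higher and 20 lower. Of these, 9 were among the 805 called directly (5.19% of all genes tested there), all with the same sign, Pyroxd2 (-1.69 ± 0.31) and D3Ertd751e (-1.41 ± 0.26) among them. Another was the DNA methyltransferase gene Dnmt1, which rose by 0.86 ± 0.15 beyond the controls and by 0.76 directly, with a control difference of -0.05. The rest of the 52 were not called directly. Map3k11, Hp and Dcn, for example, differed by 0.09, -0.06 and -0.24 directly. Between the remaining controls they differed by -0.86, -2.07 and 1.83. No cell cycle gene of the 30 was called, and their median beyond the controls was 1.238. Psca lay at 3.17 ± 1.25, Lamp3 at -0.02 ± 0.31 and Il33 at 0.27 ± 0.41 beyond the controls in this model, and none of them was called. This fit rests on 2 active and 3 deleted controls. Leaving out 1 more library gave 0 calls in 10 of 15 fits, 4, 5, 32 and 37 in 4, and 4125 without deleted control 1. In that last fit the active controls left, 1 and 3, were the only libraries from the later columns of the tables described below, so column place and control status in the active line cannot be told apart.

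**Figure D4:**
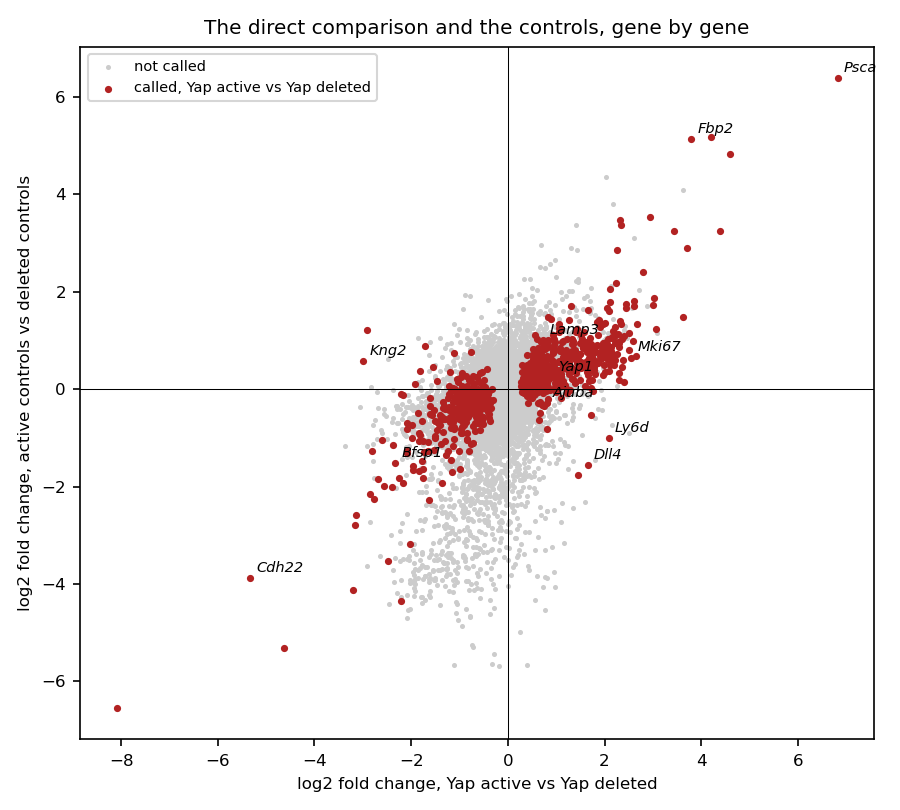
Log2 fold change between Yap active and Yap deleted epithelium (horizontal) against that between the controls of the same lines (vertical), one point per tested gene, with called genes coloured. Called genes share their sign with the controls in 90.4% (higher) and 87.1% (lower) of cases. Psca and Fbp2 lie far from 0 on both axes, and Ly6d, Dll4 and Kng2 have opposite signs on them.

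Control libraries differed in how far they resembled their line. They are set here against the active and deleted libraries on which the calls were made. The shares of all tested genes are therefore not a like background for the called genes. Active control 4 lay beyond every deleted library, on the side of the call, for 496 of the 515 higher genes (96.3%; 24.2% of all tested lay above) and 279 of the 290 lower ones (96.2%; 27.1% lay below). Active controls 1 to 3 did so for 73.2%, 46.2% and 52.2% of the higher genes (29.8%, 27.7% and 29.6% of all tested) and for 72.8%, 69.7% and 74.5% of the lower ones (30.9%, 29.2% and 31.6%). Deleted controls 3 and 4 lay below every active library for 83.5% and 90.3% of the higher genes (18.4% and 19.3% of all tested), and deleted controls 1 and 2 for 67.8% and 54.6% (32.0% and 30.8%). For the lower genes, deleted controls 3 and 4 lay above every active library for 87.2% and 92.1% (20.7% and 18.6% of all tested), and deleted controls 1 and 2 for 36.9% and 38.3% (25.2% and 24.4%).

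These libraries also sit together in the file headers. The count table of the active line lists active 2 to 6 and active control 4 first, and the other 4 libraries after them. That of the deleted line lists deleted controls 3 and 4 and deleted 1 to 5 first, then deleted controls 1 and 2. No source says what the runs of columns are. Within the first runs, active control 4 lay above both deleted controls for 474 of the 515 higher genes (92.0%, against 37.6% of all tested) and below both for 274 of the 290 lower ones (94.5%, against 38.9%). It lay above both for all 30 cell cycle genes, with a median difference of 2.62 in log2(CPM + 1), for which the pseudocount is 1 CPM.

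A model of the first-run libraries alone, chosen after seeing the data, called 0 of 16665 genes beyond the controls by edgeR, with 670 at an unadjusted p under 0.05. It rests on 1 active control. Its median beyond the controls was -0.099 for the 515 higher genes, 0.234 for the 290 lower ones and -1.204 for the 30 cell cycle genes, against 0.008 for all genes. Mki67 lay at -1.54 ± 0.96 and Ly6d at -0.76 ± 0.64, each with the sign opposite to that in the model of all 19 libraries. Yap1 lay at 0.82 ± 0.31, Ajuba at 1.0 ± 0.5 and Dll4 at 0.63 ± 0.6, with the same sign as there, and none of the 5 was called.

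Called genes were placed on the chromosomes. Of 15431 tested genes with a RefSeq position, chromosome 2, which carries Stk4, held 99 called of 1213 (8.16%), chromosome 15 (Stk3) 46 of 627 (7.34%) and chromosome 9 (Yap1) 56 of 877 (6.39%), against 5.19% overall. Chromosome 13, which carries none of the 3, held 38 of 572 (6.64%). Within 10 Mb of Stk4 24 of 198 genes were called (12.1%), of Stk3 7 of 70 (10%) and of Yap1 1 of 48 (2.08%). Farther out the shares did not fall evenly. Between 10 and 20 Mb they were 7 of 168 (4.17%) for Stk4 and 12 of 93 (12.9%) for Yap1, and between 20 and 40 Mb from Stk3 17 of 126 (13.5%). Among the 50 tested genes on each side of the 3 loci, fewer where the chromosome ends, 28 of 268 were called (10.4%; exact binomial 95% interval 7.06% to 14.7%). Cdh22, Lbp and E2f1 lie within 10 Mb of Stk4. Of the 66 called genes that separate all libraries of the lines, 18 (27.3%) lay on chromosome 2, Bfsp1, Cdh22, Depdc7 and Trp53inp2 among them. That chromosome holds 7.86% of the tested genes with a position. Of the 18, 6 lay within 10 Mb of Stk4 and 7 lay more than 40 Mb from it.

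**Figure D5:**
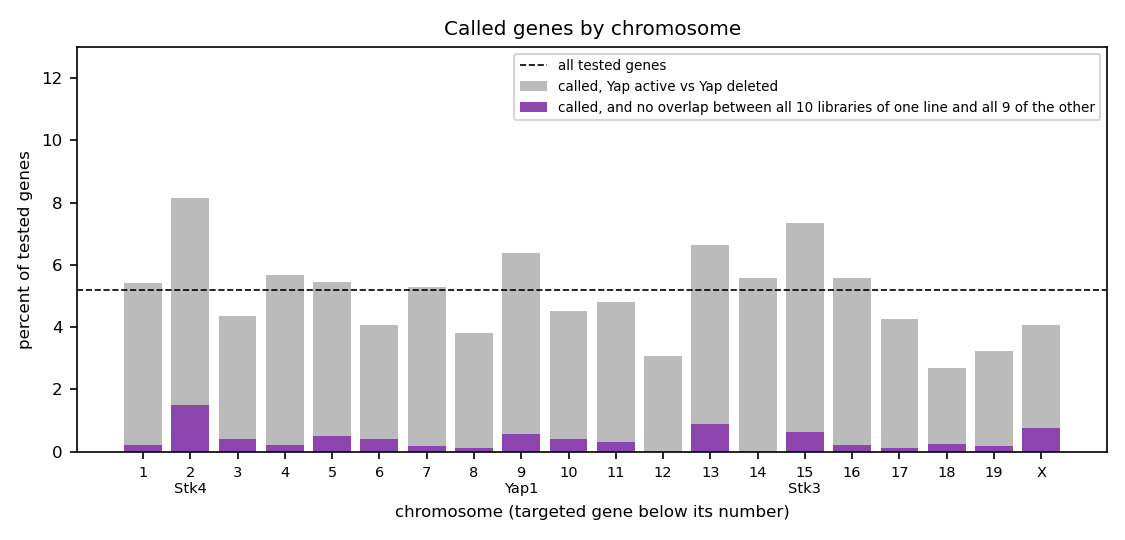
Share of tested genes called between Yap active and Yap deleted epithelium on each chromosome, in percent (grey), and the part of it for which all libraries of one line lay beyond all of the other (purple), with the share over all tested genes, 5.19%, as a dashed line. Chromosome 2 (8.16%), which carries Stk4, has the highest bars of both kinds, and chromosome 15 (7.34%) carries Stk3.

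Accessible regions that the authors list as opened or closed in each line were set beside the calls, each tied to the gene of the authors' annotation within 50 kb of its start. A region opened in the Yap active line (6017 in the list) lay near 131 of the 515 higher genes (25.4%, interval 21.7% to 29.4%), 60 of the 290 lower genes (20.7%, 16.2% to 25.8%) and 23.5% of all tested genes. Regions closed in that line (1392) lay near 4.47%, 6.55% and 4.41%, those opened in the deleted line (532) near 1.75%, 1.38% and 1.73%, and those closed in it (676) near 2.91%, 2.07% and 1.96%. Each interval for called genes held the share of all genes. Intervals are exact binomial and cover counting error only. Among named genes, opened regions of the active line lay at the promoters of Cenpe (chr3:135211490-135213160), Wwc2 (chr8:47989671-47991870) and Lbp (chr2:158305838-158307152), in the coordinates of the authors' mm10 files. They also lay at the promoters of Trp53inp1 (chr4:11155789-11157007) and Chst8 (chr7:34812012-34813460), which were lower in Yap active, and of Nfib (chr4:82504374-82507594), which was not called. A region closed in that line lay in an intron of Yap1 (chr9:7958109-7958609).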

How the data were processed

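RNA libraries were taken as deposited by the authors, as whole-number read counts per gene in 1 table per line, and joined over 23478 gene rows by gene name. The build was mm10, and the tools HOMER, DESeq, Cufflinks, Bowtie2 and Trim Galore, per the submitters' processing notes, which give neither versions nor roles. The counter and its annotation are not given in the sources used here. Among the gene names, 27 read as dates and 2 were repeated. The number of per-sample columns left aside was 0. The authors' region lists carry a score of unstated scale and, per the file headers, a distance to the nearest start site and an annotation by HOMER; they were used only to place regions.

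For the 11 libraries, genes passing filterByExpr were tested with edgeR 4.0.16 in R 4.3.3 (TMM scaling, robust quasi-likelihood fit, two-sided), with Benjamini-Hochberg adjustment over all genes tested; an adjusted p under 0.05 was a call. The difference beyond the controls is the interaction in a model of all 19 RNA libraries. CPM uses TMM factors over those 19. Alternatives were DESeq2 1.42.0, limma-voom (limma 3.58.1) with sample weights, RLE scaling, keeping all genes with a count, sex read from Xist, all libraries in 1 model, a replicate block, and leaving out each library. Replicate numbers did not pair libraries of the groups.

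Genes were named by rule: a set of 21 targeted, alveolar and Yap pathway genes; per direction the 12 called genes with the largest fold change at 4 CPM or more; 12 more whose control difference was under 0.5 or opposite; and called members of the gene lists, up to 6 per list and direction. Further list members, Epcam, Sftpb, Ptprc, Dclk1, Dnmt1, Depdc7, Trp53inp2, Ifit1 and Igfbp3 are given as list members or markers, or were chosen after their values were seen. The comparison, its members and the lists were chosen with earlier results of these data known. Promoters come from RefSeq GRCm38.p6, and motif counts are given only for the cell cycle list, since fewer of the called genes were matched than such a count needs. The fit of the 11 libraries was run on simulated counts, drawn independently for each gene and library. Those counts hold no outlying library and no runs of columns, so the run cannot show how the fit behaves with them.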

Additional observations from a re-analysis of the deposited data

Results flagged for a closer look

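Of 186 groups of values checked with Dixon's ratio, for the named genes in the active and the deleted libraries, 26 held 1 library far from the others; chance flags about 1 in 20. Active library 1 accounted for 12 of the 26, active library 6 for 10, active library 3 for 2, and deleted libraries 1 and 4 for 1 each. In the library labelled active 1, genes of the Cre system and the Hippo pathway stood apart, with Stk3 51.1 CPM (the others 31.7 to 35.6), Stk4 128 CPM (the others 79.1 to 93.5) and Esr1 2.03 CPM (the others 213 to 333). So did the Yap pathway genes, all highest there: Ctgf 470 CPM (the others 164 to 236), Cyr61 340 CPM (the others 75.3 to 125), Ajuba 115 CPM (the others 82.9 to 85.6) and Tead1 416 CPM (the others 131 to 182). The same library was the highest of its group for the transcription factor gene Nfia 163 CPM (the others 92.9 to 115), and for genes that were lower in the active group, with Gbp2b 1.7 CPM (the others 0.116 to 0.385), Ldb2 4.99 CPM (the others 0.55 to 2.19), D3Ertd751e 3.2 CPM (the others 1.43 to 1.86) and Col6a5 13.9 CPM (the others 5.12 to 7.7). Gbp2b has close copies, between which the counting could divide reads.

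Active library 6 was the highest of its group for genes of cell division, with Mki67 266 CPM (the others 101 to 142), Ccna2 48.3 CPM (the others 15.3 to 25.9), Esco2 12.8 CPM (the others 3.1 to 4.73) and Pbk 36.4 CPM (the others 5.32 to 11). It also was for 2810417H13Rik 32.7 CPM (the others 5.9 to 13.8), Bard1 11 CPM (the others 3.67 to 6.12) and Ckap2 24.7 CPM (the others 7.36 to 13.4). Outside that group it stood highest for Ctsh 1012 CPM (the others 560 to 687), S100a14 70.6 CPM (the others 20.3 to 29.3) and Cxcl16 87.4 CPM (the others 56.3 to 65.6). Without active library 6 the comparison called 412 genes, 23 of the 76 named calls were lost, and Mki67 and Ccna2 were still called.

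Active library 3 stood highest for Cdh22 0.739 CPM (the others 0.0595 to 0.219) and Myh6 53.7 CPM (the others 15.6 to 26.6), both lower in the active group as a whole. Deleted library 1 stood highest of the deleted libraries for the AT1 marker Hopx 616 CPM (the others 167 to 256), and deleted library 4 for Fam47e 21.9 CPM (the others 13 to 15.4). What sets these libraries apart was not tested.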

How the results depend on the processing

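For the 805 genes called between Yap active and Yap deleted, RLE scaling gave 777, no count filter 630, DESeq2 2018 and limma-voom 3353. Sex from Xist as a covariate gave 366, and all 19 libraries in one model 228. By Xist above 20 CPM, active libraries 1, 2, 3 and 6 and deleted libraries 1 and 3 read as female, so sex was not spread evenly over the groups. Among the controls only active control 4 and deleted control 3 did. Leaving out 1 library gave 264 to 2781. With the replicate block the count was 0, with 2374 genes at an unadjusted p under 0.05; the numbers do not pair the libraries, since the correlations of same-numbered libraries ran from -0.45 to 0.25. For the 2781 called without active library 1, DESeq2 gave 4354, the replicate block 787, sex from Xist 1585, all other libraries in one model 477, and leaving out 1 more library 1450 (deleted 5) to 3772; RLE scaling, limma-voom and no filter stayed within 1.5 times. For the 3 called between the controls, DESeq2 gave 799, limma-voom 5, sex from Xist and the replicate block 0, leaving out 1 library 0 to 3, leaving out deleted controls 1 and 2 together 0, and leaving out active controls 2 and 4 and deleted control 2 together 0. Beyond the controls DESeq2 called 17 and limma-voom 21, and edgeR 0 except without active library 1, active controls 2 and 4 and deleted control 2 together, where it called 52. Opened regions lay near 20.6% of the higher genes within 10 kb and 28% within 100 kb.

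Of the 76 called genes named, DESeq2 lost none, RLE scaling and limma-voom 4 each, no filter 11, sex from Xist 25, all 19 libraries in one model 48 and the replicate block 76, and fits without 1 library 0 to 36 (without deleted 3). None changed sign in these fits. Of 33 lists, 19 had a positive median, and 13 to 21 under the alternatives. The fit of first-run libraries, DESeq2 and limma-voom beyond the controls, and leaving out libraries together were chosen after seeing the data.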
